A study of Mus musculus with 2 samples.

Results

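Myeloid progenitors that carried Mpo and Cd34 transcripts but only low levels of the genes of a chosen lineage numbered 218 cells in the GATA-1 knock-in library and 418 cells in the wild-type library. These 636 cells were part of 11416 cells that passed quality limits, 5781 in the knock-in library and 5635 in the wild-type library. The cells were chosen by measured transcripts. CP10k is the number of unique molecular identifiers (UMIs, each standing for 1 captured mRNA) of a gene when the UMIs of the cell are scaled to 10000. A cell had to reach 20 CP10k of Mpo and 1 UMI of Cd34. The monocyte genes Ly86, F13a1, Irf8 and Ms4a6c together, the neutrophil genes Cebpe, S100a8, S100a9 and Fcnb together, Car1 alone, and the mast cell and basophil genes Cpa3, Ms4a2 and Fcer1a together each had to stay below 5 CP10k. The lymphoid genes Dntt and Flt3 together had to stay below 3 UMIs. Levels of these 16 genes follow from the choice and are given only as a description.

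The study compared single-cell transcriptomes of mouse bone marrow between an animal group carrying the GATA-1 2RA mutation as a knock-in and wild-type mice. GATA-1 is a zinc finger transcription factor of red cell, megakaryocyte, mast cell and eosinophil development. Lineage-negative Kit-positive cells, the fraction of marrow that holds stem cells and progenitors, were sorted by flow cytometry before droplet capture. Each genotype was 1 library, so no test between genotypes was possible, and intervals cover counting error only. The residues changed, strain, age, sex and number of pooled mice are not given in the sources used here.

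Mpo encodes myeloperoxidase, the enzyme of neutrophil primary granules that makes hypochlorous acid. Its transcript appears in granulocyte and monocyte progenitors of the marrow before these lineages part, together with transcripts of the serine proteases neutrophil elastase (Elane), proteinase 3 (Prtn3) and cathepsin G (Ctsg). Cd34, a surface sialomucin of early progenitors, is lost as these cells mature. The factors PU.1 (Spi1), C/EBP alpha (Cebpa), Gfi1 and Irf8 direct the choice between the neutrophil and the monocyte path.

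The gated cells held 1898760 UMIs in the knock-in library and 4633265 UMIs in the wild-type library, with medians of 8426 and 11015 UMIs per cell. Over all kept cells the medians were 5449 UMIs in the knock-in library and 9826 UMIs in the wild-type library, so depth differed with genotype. Of all barcodes 10 occurred in both libraries, and none of the gated cells shared a barcode. Doublets were kept, as the rule names no doublet step, and 10 knock-in and 15 wild-type gated cells lay in the top 5% of doublet scores of their library. Car1-positive cells with little Mpo (1605 knock-in and 1514 wild-type cells, medians of 13502 and 18094 UMIs) were used as a guide to free RNA. They carry an erythroid gene and were taken to have few granule proteases of their own. How much of the granule transcripts in them was free RNA was not tested. At 3000 UMIs per cell, a Prtn3 UMI occurred in 10.7% of those knock-in cells and 30.02% of those wild-type cells (34.1% and 75.2% unthinned), against 99.03% and 99.3% of the gated knock-in and wild-type cells.

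Mpo reached a median of 54.9 CP10k in gated knock-in cells (20.5 to 165) and 65.4 CP10k in gated wild-type cells (20.02 to 181). Close to the Mpo limit lay 32 knock-in and 39 wild-type gated cells with 20 to 25 CP10k, while 51 knock-in and 40 wild-type cells with 15 to 20 CP10k missed the choice on Mpo alone. The gated cells therefore form a range cut at a level, and not a separate group. Absence of lineage genes was not the rule in them. Only 31.7% of gated knock-in cells (95% Clopper-Pearson interval 25.5 to 38.3) and 24.9% of gated wild-type cells (20.8 to 29.3) had no UMI of the 4 monocyte genes. Likewise 53.7% of the knock-in and 45.2% of the wild-type cells had no UMI of the 4 neutrophil genes. A cell before lineage choice here means a cell with little lineage transcript.

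Of the markers that the choice did not use, Prtn3 had 5841 CPM (UMIs scaled to a total of 1000000) in gated knock-in cells and 6490 CPM in gated wild-type cells. Ctsg had 3392 CPM in knock-in and 2942 CPM in wild-type cells. Elane, the protease not among the markers, had 5595 CPM in knock-in and 6718 CPM in wild-type cells. All 3 proteases were thus abundant in the cells, and Cd34, which the rule used, had 287 CPM in knock-in and 264 CPM in wild-type cells. Genes of later or other cells were low to different degrees. Camp and Ltf of late neutrophils had 0 UMIs each in knock-in cells and 2 and 0 UMIs in wild-type cells, Siglech of plasmacytoid dendritic cells had 0 and 0, and Il7r of lymphoid cells had 3 and 0. The red cell regulator Klf1 had 10 UMIs in knock-in and 28 UMIs in wild-type cells. Mcpt8, a protease gene of basophils, had 63 UMIs in knock-in and 266 UMIs in wild-type cells, and at 3000 UMIs per cell it occurred in 6.31% of gated knock-in and 10.4% of gated wild-type cells (15.6% and 26.6% unthinned), above the 0.134% of Car1-positive knock-in cells and 0 of 1459 Car1-positive wild-type cells (upper bound 0.253%). The monocyte receptor genes Ccr2, with 40 UMIs in knock-in and 72 UMIs in wild-type cells, and Csf1r, with 35 and 79, were also present. Csf1r occurred in 4.85% of gated knock-in and 6.28% of gated wild-type cells at 3000 UMIs (12.8% and 15.6% unthinned), against 0.0669% and 0.206% of Car1-positive knock-in and wild-type cells. Hbb-bs (adult beta-globin) had 34 UMIs in knock-in cells and 4 in wild-type cells. At 3000 UMIs per cell, Hbb-bs occurred in 8.25% of 206 gated knock-in cells and 0 of 414 gated wild-type cells (upper bound 0.887%), and in 3.95% and 0.960% of Car1-positive knock-in and wild-type cells. Unthinned shares were 14.7% of gated knock-in and 0.957% of gated wild-type cells. The part of free globin RNA in the comparisons of genotype was not tested.

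The stretches upstream of Mpo, Elane and Ctsg are shown because the gated cells carried these granule genes together. None is shown for Prtn3, whose GENCODE start lies upstream of the RefSeq window. They are RefSeq sequences of GRCm38.p6, read 5′ to 3′ on the gene's strand, and each ends where the gene of the GENCODE M21 annotation begins. Capitals mark GAGGAA, a core bound by PU.1 and other ETS factors. The stretches lie at chr11:87793534-87793580 (plus strand) for Mpo, chr10:79886062-79886246 (plus strand) for Elane and chr14:56102575-56102824 (minus strand) for Ctsg.
Mpo: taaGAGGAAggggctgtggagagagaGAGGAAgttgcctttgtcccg
Elane: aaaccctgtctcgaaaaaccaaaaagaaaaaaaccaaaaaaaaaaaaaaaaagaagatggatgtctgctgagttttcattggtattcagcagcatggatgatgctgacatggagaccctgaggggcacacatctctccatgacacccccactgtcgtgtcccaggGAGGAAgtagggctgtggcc
Ctsg: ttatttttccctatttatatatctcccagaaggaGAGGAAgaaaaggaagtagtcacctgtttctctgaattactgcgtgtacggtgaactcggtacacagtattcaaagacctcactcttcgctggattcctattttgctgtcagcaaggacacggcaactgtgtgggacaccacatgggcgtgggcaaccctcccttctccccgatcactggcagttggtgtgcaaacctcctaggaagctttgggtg

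Over the whole 250 bases before the RefSeq start, GAGGAA on either strand occurred in all 4 of Mpo, Elane, Prtn3 and Ctsg, and in 23.3% of 32851 promoter windows. The MYB core AACNG on either strand also occurred in all 4, and in 74.2% of windows. The C/EBP core TTGCNNAA, again on either strand, occurred in none of the 4 and in 9.56% of windows. A core of GATA factors, spelled AGATAA and sought on both strands, occurred in none of the 4 and in 9.99% of windows. These are matches of letters within 250 bases and were chosen for display with the expression values known.

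Gated progenitors were a smaller share of the knock-in library. They made up 3.77% of kept knock-in cells (3.29 to 4.29) and 7.42% of kept wild-type cells (6.75 to 8.13), a log2 ratio of -0.98 (-1.22 to -0.74). The gap was smaller among deeper cells and at equal depth. Among the 4598 knock-in and 5314 wild-type cells with at least 3000 UMIs, a limit tried after the values were seen, the shares were 4.48% and 7.79%, a log2 ratio of -0.80 (-1.05 to -0.55). With each of these cells thinned to 3000 UMIs before the choice, the shares were 3.70% of knock-in and 5.16% of wild-type cells, a log2 ratio of -0.48 (-0.76 to -0.20). All cells with Mpo of at least 20 CP10k made up 13.1% of kept knock-in cells and 33.8% of kept wild-type cells. Within those Mpo-positive cells the order was the opposite, with 28.8% of knock-in and 22.0% of wild-type cells in the gate, a log2 ratio of 0.39 (0.15 to 0.63).

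**Figure D1:**
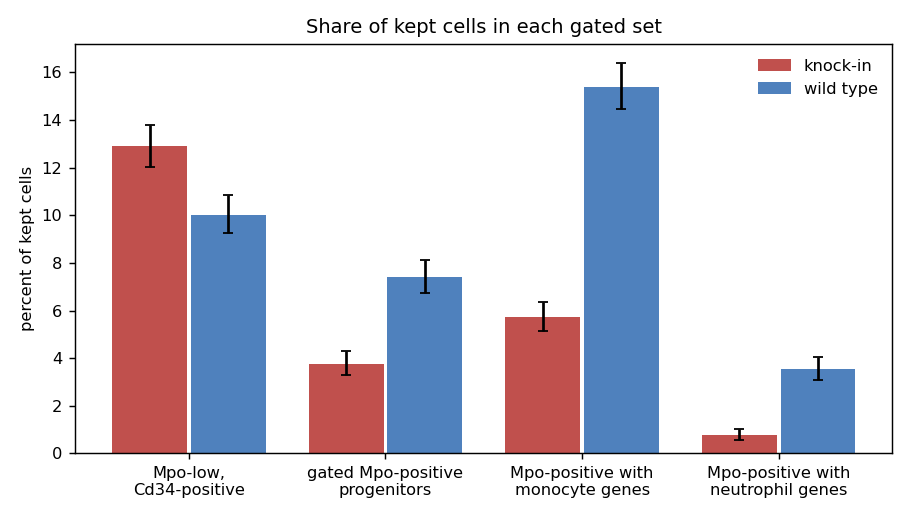
Percent of kept cells in 4 sets, with the knock-in library in red to the left of the wild-type library in blue. Bars start at 0 and error bars are 95% Clopper-Pearson intervals, which cover counting error only. The gated progenitors stand at 3.77% in the knock-in and 7.42% in the wild-type library, and the set with neutrophil genes at 0.761% and 3.53%.

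Neighbouring sets of Mpo-positive cells were also smaller shares of the knock-in library. Mpo-positive cells with neutrophil genes made up 0.761% of kept knock-in cells (44 cells) and 3.53% of kept wild-type cells (199 cells), a log2 ratio of -2.21 (-2.72 to -1.74). Mpo-positive cells with monocyte genes made up 5.71% of knock-in cells (330) and 15.4% of wild-type cells (868), a log2 ratio of -1.43 (-1.62 to -1.25). Cells with Cd34 but Mpo below 20 CP10k, held to the same lineage limits, stood the other way, with 12.9% of knock-in cells (745) and 10.0% of wild-type cells (565). As a share of Mpo-positive cells, those with neutrophil genes made up 5.80% in the knock-in and 10.5% in the wild-type library. Those with monocyte genes made up 43.5% of Mpo-positive knock-in cells and 45.6% of Mpo-positive wild-type cells. Whether depth moved these shares was not tested for the neighbouring sets.

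Compared with Mpo-low Cd34-positive cells, the gated cells carried far more granule and secretory transcripts and far fewer stem, erythroid and platelet transcripts. Of 5892 measured genes outside the rule, 232 (3.94%) were at least 1.5-fold higher and 726 (12.3%) at least 1.5-fold lower in gated cells of both libraries. In 1 library at a time the shares higher were 6.31% in the knock-in and 5.6% in the wild-type library, and the shares lower 16.7% and 19.2%. Elane had 5595 CPM in gated and 52.7 CPM in Mpo-low knock-in cells, and 6718 CPM in gated and 197 CPM in Mpo-low wild-type cells. Hp, the haptoglobin gene, had 172 against 3.99 CPM in the knock-in and 213 against 6.70 CPM in the wild-type library. Ms4a3, a membrane protein of granulocyte and monocyte progenitors, had 716 against 20.5 CPM in the knock-in and 765 against 45.1 CPM in the wild-type library. On the lower side stood Pf4, the platelet factor 4 gene, with 7.37 against 360 CPM in the knock-in and 4.53 against 424 CPM in the wild-type library. Ly6a, the stem cell antigen Sca-1, had 2.11 against 39.9 CPM in the knock-in and 3.88 against 59.3 CPM in the wild-type library.

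By list, 20 of 20 measured stem and multipotent genes were at least 1.5-fold lower in the gated cells of both libraries than in Mpo-low Cd34-positive cells, with median log2 ratios of -1.81 in the knock-in and -1.84 in the wild-type library. All 6 measured megakaryocyte genes and 9 of 10 erythroid genes were lower as well. Of 22 genes of endoplasmic reticulum folding and secretion, 16 were higher, with medians of 1.01 in the knock-in and 1.21 in the wild-type library. Glycolysis genes were higher in 7 of 13, and immediate early genes lower in 13 of 15. Transcription factors of myeloid cells stood both ways, with 4 of 15 higher and 4 of 15 lower. The sets were cut from the same cells by Mpo and the lineage genes, so these ratios describe the range that the cut spans and are no test.

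**Figure D2:**
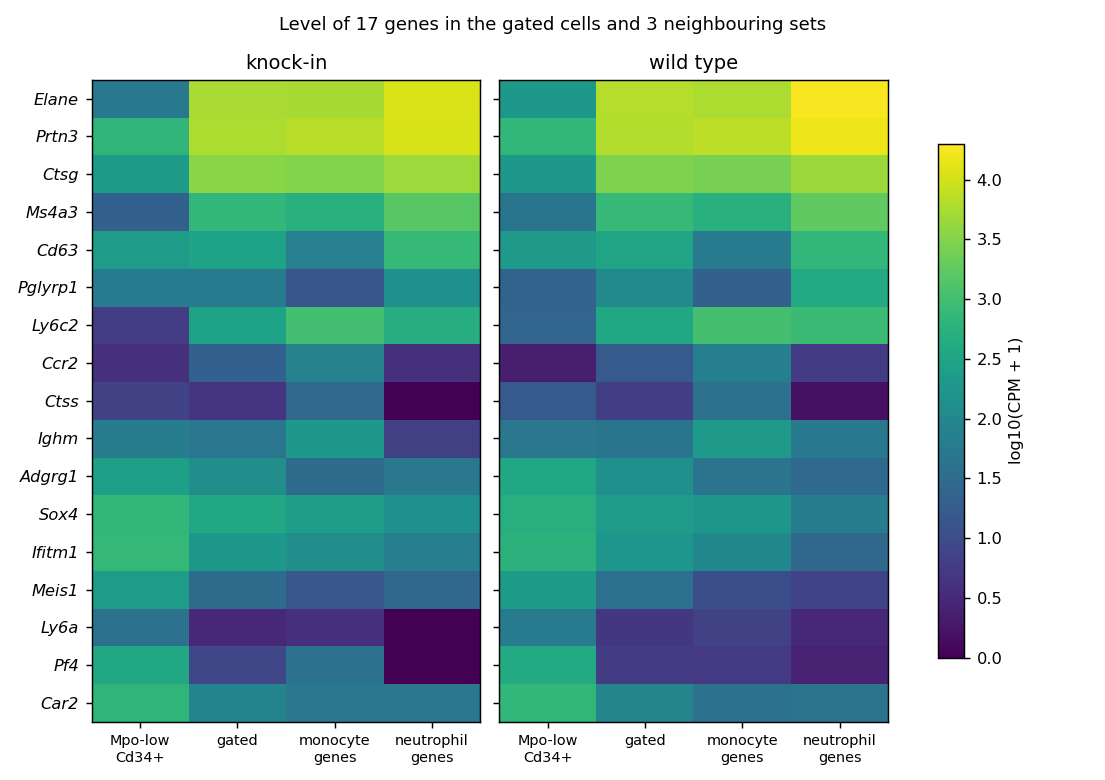
Level of 17 genes as log10(CPM + 1) in Mpo-low Cd34-positive cells, gated progenitors, and Mpo-positive cells with monocyte or neutrophil genes, in the knock-in library (left panel) and the wild-type library (right panel). Elane stands at 52.7 CPM in Mpo-low cells and 5595 CPM in gated cells of the knock-in library, and Pf4, Car2 and Ly6a are brightest in the Mpo-low cells of both.

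Next to Mpo-positive cells with monocyte genes, the gated cells had higher transcripts of early progenitors and lower transcripts of monocytes. That set was cut by the sum of monocyte genes and, unlike the gated cells, needed no Cd34. These ratios too describe the cut and are no test. Primary granule genes were close in summed level only, at 23096 against 22595 CPM in the knock-in and 24752 against 23361 CPM in the wild-type library. Gene by gene, 4 of 17 were at least 1.5-fold higher in both libraries and 1 lower. Their medians were 0.29 in the knock-in and 0.19 in the wild-type library. Of 5418 measured genes, 111 (2.05%) were at least 1.5-fold higher and 101 (1.86%) at least 1.5-fold lower in gated cells of both libraries. In 1 library at a time the shares higher were 4.19% in the knock-in and 3.12% in the wild-type library, and the shares lower 3.56% and 2.88%. Cd63, a tetraspanin of granule membranes, had 314 against 75.04 CPM in the knock-in and 324 against 59.7 CPM in the wild-type library. Adgrg1, an adhesion receptor of stem and progenitor cells, had 130 against 32.0 CPM in the knock-in and 143 against 44.1 CPM in the wild-type library. Stem and multipotent genes were higher in 5 of 10, with medians of 0.84 in both libraries. Monocyte and dendritic genes that the rule did not use were lower in 10 of 12. Among them were the chemokine receptor gene Ccr2, with 21.1 against 83.3 CPM in the knock-in and 15.5 against 71.7 CPM in the wild-type library, and the cathepsin S gene Ctss, with log2 ratios of -2.96 in the knock-in and -2.89 in the wild-type library. Ighm, the immunoglobulin mu gene, was also lower in gated cells, with 47.4 against 197 CPM in the knock-in and 46.2 against 202 CPM in the wild-type library.

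Next to Mpo-positive cells with neutrophil genes, the gated cells had lower granule transcripts and higher transcripts of early progenitors. Here the set was cut by the sum of neutrophil genes and again needed no Cd34, so the ratios are no test. Of 3005 measured genes, 98 (3.26%) were higher and 49 (1.63%) lower in gated cells of both libraries. In 1 library at a time the shares higher were 7.72% in the knock-in and 10.1% in the wild-type library, and the shares lower 4.39% and 2.63%. The knock-in neutrophil-gene set held 44 cells, which limits its precision. Primary granule genes were lower in 9 of 15 and higher in 1, with medians of -0.78 in the knock-in and -1.10 in the wild-type library. Elane had 5595 against 11525 CPM in the knock-in and 6718 against 17987 CPM in the wild-type library. Ifitm3, an interferon-induced membrane protein gene, had 303 against 115 CPM in the knock-in and 353 against 123 CPM in the wild-type library. Sox4, a factor of early progenitors, had 361 against 146 CPM in the knock-in and 238 against 64.5 CPM in the wild-type library. Mpo itself, a gene of the rule, had 6128 against 8604 CPM in the knock-in and 6791 against 8084 CPM in the wild-type library.

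Of the genes ranked within the gate, Elane had the highest variance over mean from cell to cell. Genes of the rule, mitochondrial genes and ribosomal protein genes were not ranked. This measure was not corrected for level, and at 3000 UMIs Elane averaged 14.7 UMIs per knock-in and 18.7 UMIs per wild-type cell. At 3000 UMIs per cell (206 knock-in and 414 wild-type cells, with 12 and 4 shallower cells left out), the variance of Elane was 19.99 times its mean in knock-in and 18.2 times its mean in wild-type cells. Prtn3 had 7.45 and 8.58 times its mean in knock-in and wild-type cells, against medians of 1.02 and 1.03 over 3277 genes. The nuclear RNA Malat1 had 5.95 and 10.2 times in knock-in and wild-type cells. Others among the 15 most variable genes were Ctsg, the linker histone gene Hist1h1b, Ly6c2, the mitotic gene Ube2c, the basophil protease gene Mcpt8, Ms4a3, Jun and Fos. The summed UMIs of Elane, Prtn3 and Ctsg ran from 1 to 136 with a median of 32 in knock-in cells, and from 1 to 171 with a median of 44 in wild-type cells.

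Cells were ranked by that protease sum within each library and split into tertiles, which are cuts of a range and not cell types. Of 1096 measured genes, 108 (9.85%) were at least 1.5-fold higher and 89 (8.12%) at least 1.5-fold lower in the high tertile than in the low tertile of both libraries. In 1 library at a time the shares higher were 17.8% in the knock-in and 14.8% in the wild-type library, and the shares lower 14.1% and 14.4%. In the knock-in library, Ms4a3 had 67.6, 415 and 1255 CPM in the low, middle and high tertile. In the wild-type library, it had 101, 669 and 1389 CPM. Ly6c2, a surface antigen of monocytes and their progenitors, had 14.5, 91.8 and 618 CPM in the knock-in tertiles and 31.4, 280 and 713 CPM in the wild-type tertiles. Alas1, the first enzyme of heme synthesis outside red cells, had 53.1, 164 and 539 CPM in the knock-in tertiles and 58.0, 307 and 524 CPM in the wild-type tertiles. Mpo, used by the rule, stood at 0.72 (Pearson's r, 206 cells) with the protease sum in knock-in and 0.67 (414 cells) in wild-type cells. The cells of each correlation share 1 library and 1 depth.

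Genes of early progenitors ran the other way across the same tertiles. Ctla2a, a cysteine protease inhibitor gene, had 333, 111 and 34.3 CPM in the low, middle and high knock-in tertile. It had 261, 48.3 and 21.7 CPM in the wild-type tertiles. Ifitm1 had 382, 271 and 58.8 CPM in the knock-in and 389, 171 and 41.1 CPM in the wild-type tertiles. Sox4 had 541, 517 and 181 CPM in the knock-in and 469, 266 and 130 CPM in the wild-type tertiles. Summed over the list, stem and multipotent genes were lower in the high than in the low tertile by a log2 ratio of -1.50 (-1.73 to -1.27) in the knock-in and -1.72 (-1.89 to -1.55) in the wild-type library.

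Secretory genes ran with the proteases, with log2 ratios of high over low tertile of 0.91 in the knock-in and 0.86 in the wild-type library for endoplasmic reticulum folding. Neutrophil genes outside the rule had 1.85 and 1.62, and monocyte and dendritic genes 0.59 and 0.72, in the knock-in and the wild-type library. Myeloid transcription factors, summed over the list, were lower in the high than in the low tertile, with log2 ratios of -0.33 (-0.54 to -0.12) in the knock-in and -0.39 (-0.55 to -0.24) in the wild-type library. Of these factors, Spi1 had 295, 338 and 245 CPM in the low, middle and high knock-in tertile and 227, 210.1 and 222 CPM in the wild-type tertiles. Cebpa had 91.8, 96.6 and 63.7 CPM in the low, middle and high knock-in tertile and 72.5, 84.5 and 77.3 CPM in the wild-type tertiles. Gfi1 had 14.5, 72.5 and 58.8 CPM in the knock-in and 36.2, 33.8 and 48.3 CPM in the wild-type tertiles, from few UMIs. The intervals of high over low tertile held 0 for Spi1 and Cebpa in both libraries. S phase genes were nearly level, with log2 ratios of 0.04 (-0.12 to 0.20) in the knock-in and -0.18 (-0.28 to -0.07) in the wild-type library.

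**Figure D3:**
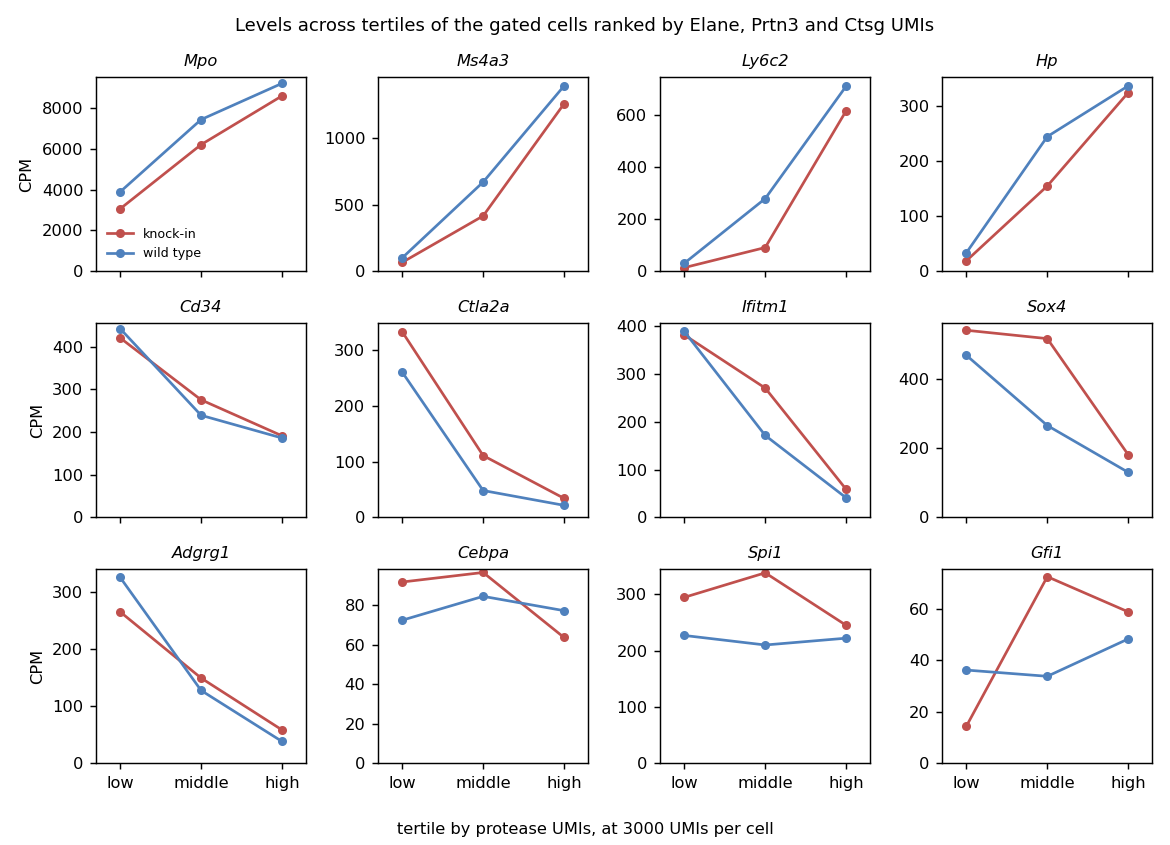
CPM of 12 genes in the low, middle and high tertile of gated cells ranked by Elane, Prtn3 and Ctsg UMIs at 3000 UMIs per cell, for the knock-in (red) and the wild-type library (blue). Each point is a sum over the cells of 1 tertile, without a replicate. Ms4a3, Ly6c2 and Hp climb in both libraries, Cd34, Ctla2a, Ifitm1, Sox4 and Adgrg1 decline, and Cebpa stays between 63.7 and 96.6 CPM.

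Between genotypes the shares of gated cells along this range differed somewhat, within overlapping intervals. Limits common to both libraries were 20 and 60 protease UMIs, chosen after the values were seen. Fewer than 20 were found in 36.4% of knock-in cells (29.8 to 43.4) and 29.2% of wild-type cells (24.9 to 33.9). From 20 to 59 were found in 37.9% of knock-in and 38.4% of wild-type cells. Fractions with 60 or more were 25.7% (19.9 to 32.3) of knock-in cells and 32.4% (27.9 to 37.1) of wild-type cells, intervals that overlap. Within 2 UMIs of a limit lay 26 knock-in and 45 wild-type cells.

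Over the whole gate, transcript levels differed little between genotypes for most genes. Of 5996 genes outside the rule with at least 100 UMIs, 178 (2.97%) were at least 1.5-fold higher and 195 (3.25%) at least 1.5-fold lower in knock-in cells, and the median log2 ratio was 0.05. Together 6.22% were at least 1.5-fold apart. With ratios centred on the median gene, the split was 123 higher and 248 lower. Calls at 1.5-fold moved with the settings, as 22 of the 52 named genes that were apart came under 1.5-fold in at least 1 alternative. Primary granule genes were close between genotypes in UMIs summed over cells, with 0 of 17 measured at least 1.5-fold apart and a median of -0.10. Prtn3 had a log2 ratio of -0.15 (-0.18 to -0.12), Elane -0.26 (-0.30 to -0.23) and Ctsg 0.21 (0.16 to 0.25). Plac8, a placenta-specific 8 gene expressed in myeloid cells, had 3173 CPM in knock-in and 3267 CPM in wild-type cells.

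In summed UMIs, Ctsg and Elane thus stood on opposite sides of equality. Their ratios differed along the range, whose limits are cut on the sum of these same genes and Prtn3. The intervals cover counting error and not the spread between cells. For Elane the variance was 19.99 times the mean in knock-in and 18.2 times in wild-type cells. Whether the opposite sides exceed that spread was not tested. Among cells with 60 or more protease UMIs, Ctsg had 5642 CPM in knock-in and 4075 CPM in wild-type cells, a log2 ratio of 0.47 (0.35 to 0.59). Among cells with fewer than 20, Ctsg had 1160 and 1275 CPM in knock-in and wild-type cells, a log2 ratio of -0.14 (-0.36 to 0.09). Elane was nearly level in the cells with 60 or more, at 12579 CPM in knock-in and 13346 CPM in wild-type cells. In cells with fewer than 20 it had 151 CPM in knock-in and 361 CPM in wild-type cells, a log2 ratio of -1.26 (-1.85 to -0.70). Elane also had 23.1 CPM in Car1-positive Mpo-low knock-in cells and 93.4 CPM in Car1-positive Mpo-low wild-type cells, and the part of free RNA in the low-protease cells was not tested.

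GATA factors were scarce in the gate. Gata1 had 7 UMIs in knock-in and 22 UMIs in wild-type cells, 3.69 and 4.75 CPM, against 142 and 146 CPM in Car1-positive Mpo-low knock-in and wild-type cells. A 3′ tag count of Gata1 does not check the genotype labels. Gata2 had 56 UMIs (29.5 CPM) in knock-in and 102 UMIs (22.0 CPM) in wild-type cells, a log2 ratio of 0.42 (-0.08 to 0.91) whose interval holds 0. At 3000 UMIs per cell a Gata1 UMI occurred in 1.94% of gated knock-in and 1.21% of gated wild-type cells (2.75% and 4.07% unthinned).

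Myeloid transcription factors had a median log2 ratio of 0.15, with 0 of 14 measured genes at least 1.5-fold higher and 1 lower. That 1 was Cebpb, a factor of emergency granulopoiesis and macrophages, with 58.5 CPM in knock-in and 96.0 CPM in wild-type cells (log2 ratio -0.72, -1.03 to -0.41). Spi1 had 259 CPM in knock-in and 228 CPM in wild-type cells, Myb 489 and 416 CPM, and Cebpa 74.8 and 69.9 CPM. Irf5, Klf4, Id2, Rara, Irf4 and Gfi1b fell under 100 UMIs and are not counted.

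Early genes stood slightly higher in knock-in cells, with a median of 0.23 over 13 measured stem and multipotent genes, 3 of them at least 1.5-fold higher and none lower. Sox4 had 361 CPM in knock-in and 238 CPM in wild-type cells (log2 ratio 0.60, 0.46 to 0.74). Txnip, an inhibitor of thioredoxin, had 101 and 61.3 CPM in knock-in and wild-type cells, and Hoxa9, a homeobox factor of stem and progenitor cells, 49.0 and 31.7 CPM. Kit and Meis1 stood the other way, at log2 ratios of -0.25 and -0.20. Within the cells with 20 to 59 protease UMIs the summed list had a log2 ratio of 0.34 (0.18 to 0.51), while it had -0.03 (-0.17 to 0.11) in those with fewer than 20 and 0.04 (-0.25 to 0.32) in those with 60 or more. The count of genes higher was 1 to 3 of 13 over the alternatives, and Sox4 and Hoxa9 were among those that came under 1.5-fold.

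Neutrophil genes outside the rule stood lower in knock-in cells, with 7 of 8 measured genes below 0, a median of -0.32 and 1 gene at least 1.5-fold lower. Over all measured genes outside the rule, 2519 of 5996 stood below 0 and 195 were at least 1.5-fold lower. Pglyrp1, a peptidoglycan recognition protein of granules, had 58.99 CPM in knock-in and 109 CPM in wild-type cells (log2 ratio -0.89, -1.19 to -0.59). Lta4h, the leukotriene A4 hydrolase gene, had 189 and 250.8 CPM in knock-in and wild-type cells. Gfi1 alone stood above 0, at 49.0 and 41.7 CPM. Lcn2, with 13 knock-in and 77 wild-type UMIs, fell just short of the count minimum, and the other 11 listed genes had fewer. The list median was -0.49 in neutrophil-gene, -0.16 in monocyte-gene, -0.05 in Mpo-low Cd34-positive and -0.02 in Car1-positive cells. In gated cells with fewer than 20, 20 to 59, and 60 or more protease UMIs, the summed list had log2 ratios of -0.45, -0.31 and -0.27.

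Monocyte and dendritic genes outside the rule had a median of 0.00 over 10 measured genes, 0 higher and 1 lower. Slpi, a secreted protease inhibitor, had 79.0 CPM in knock-in and 142 CPM in wild-type cells (log2 ratio -0.85, -1.11 to -0.59). Its log2 ratio was -0.80 in Mpo-positive cells with monocyte genes and -2.68 in Car1-positive Mpo-low cells. Ly6c2 had 311 CPM in knock-in and 368 CPM in wild-type cells, and Tyrobp, a signalling adaptor, 320 and 305 CPM.

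Genes of secretion were nearly level, as 0 of 21 measured genes of endoplasmic reticulum folding were at least 1.5-fold apart, with a median of 0.10. Calr, the calreticulin chaperone, had 2296 CPM in knock-in and 1791 CPM in wild-type cells (log2 ratio 0.36, 0.30 to 0.41). Hspa5, the chaperone BiP, had 922 and 748 CPM in knock-in and wild-type cells (0.30, 0.22 to 0.39). Xbp1, Pdia4 and Sec61b stood the other way, at -0.30, -0.27 and -0.26.

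Cytokine receptor and surface genes had a median of 0.07, with 0 of 17 measured higher and 2 lower. Cd44, the hyaluronan receptor, had 33.7 CPM in knock-in and 57.8 CPM in wild-type cells (log2 ratio -0.78, -1.20 to -0.38). Fcgr3, the low-affinity IgG receptor CD16 by which granulocyte-monocyte progenitors are sorted, had 70.0 CPM in knock-in and 111 CPM in wild-type cells (-0.67, -0.95 to -0.39). Il3ra and Csf2rb, chains of the interleukin 3 receptor, stood above 0 at 0.34 and 0.42. Cd44 and Fcgr3 both came under 1.5-fold in some alternatives, and the count of genes lower was 0 to 2.

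Immediate early genes, which include the AP-1 factors, were the list with the lowest median, -0.51 over 14 measured genes, with 0 at least 1.5-fold higher and 6 lower. Fosb had 64.8 CPM in knock-in and 131 CPM in wild-type cells (log2 ratio -1.02, -1.31 to -0.73). Jund had 195 and 319 CPM, Klf6 33.2 and 62.2 CPM, Dusp1 36.3 and 61.9 CPM, Zfp36 30.02 and 46.4 CPM, and Klf2 13.2 and 30.6 CPM in knock-in and wild-type cells. Jun was level, with 400.3 CPM in knock-in and 414 CPM in wild-type cells, and so was Ier2. The summed list was lower in all 3 bins of protease UMIs, with log2 ratios of -0.45, -0.51 and -0.49. Over the alternatives 4 to 8 of the 14 genes were lower and 0 higher, and Jund, Klf6, Dusp1 and Zfp36 came under 1.5-fold in some of them. Elsewhere the median log2 ratio of the list was -0.71 in Mpo-positive cells with monocyte genes, -0.19 in Mpo-low Cd34-positive cells and -0.22 in Car1-positive Mpo-low cells. In Mpo-positive cells with neutrophil genes it stood the other way, with a median of 0.22 over 6 measured genes and a summed level of 1238 CPM in knock-in and 1042 CPM in wild-type cells.

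Class I antigen presentation genes had a median of -0.17, with 0 of 11 higher and 2 lower, and the abundant heavy chains stood together. H2-K1 had 592 CPM in knock-in and 862 CPM in wild-type cells (log2 ratio -0.54, -0.64 to -0.45), and H2-D1 523 and 763 CPM. B2m, the light chain, had 522 CPM in knock-in and 807 CPM in wild-type cells (-0.63, -0.73 to -0.53). H2-Q7 was farthest apart, at 22.6 and 80.3 CPM (-1.83, -2.32 to -1.37). Heavy chain genes are near copies of each other, so how reads were split between them is uncertain. The proteasome subunit Psmb8 was level, at 634 and 630 CPM. B2m was also lower in the other sets, with log2 ratios of -0.78, -0.34, -0.57 and -0.70 in monocyte-gene, neutrophil-gene, Mpo-low Cd34-positive and Car1-positive cells.

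Interferon response genes had a median of 0.10, with 2 of 10 measured higher and 1 lower. Mndal and Ifi203, DNA-sensing proteins of the Ifi200 family, were higher. Mndal had 125 CPM in knock-in and 59.8 CPM in wild-type cells, and Ifi203 had 111 and 61.1 CPM. Bst2, the tetherin gene, was lower at 60.04 and 152 CPM (log2 ratio -1.34, -1.64 to -1.05). Mndal and Ifi203 are also near copies, with the same uncertainty.

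Cell cycle genes differed by phase. G2 and M phase genes had a median of 0.21, with 3 of 24 measured higher and 0 lower, and S phase genes a median of -0.15, with 0 of 28 higher and 1 lower. Cenpf, a kinetochore protein, had 114 CPM in knock-in and 64.1 CPM in wild-type cells (log2 ratio 0.83, 0.57 to 1.09). Cenpe, a mitotic kinesin, had 67.9 and 38.8 CPM, and Cdc20, an activator of the anaphase-promoting complex, 89.5 and 57.2 CPM in knock-in and wild-type cells. Top2a, a listed gene not called higher, occurred in 42.7% of knock-in and 41.3% of wild-type cells at 3000 UMIs (59.6% and 68.7% unthinned). In Car1-positive cells it occurred in 40.2% and 45.8% at that depth. Cells with 10 or more listed G2 and M phase UMIs (a limit chosen after the values were seen) made up 23.3% (17.7 to 29.7) of knock-in and 17.6% (14.1 to 21.7) of wild-type cells, intervals that overlap. They held 62.4% of the listed UMIs in knock-in and 47.1% in wild-type cells. Per cell at 3000 UMIs, the median of the summed list was lower in knock-in cells, at 3 UMIs against 4 UMIs in wild-type cells. Only the mean was higher, at 6.15 against 5.50 UMIs. In the cells with fewer than 20 protease UMIs the summed list had a log2 ratio of 0.37 (0.20 to 0.54), in those with 20 to 59 it had 0.08 (-0.09 to 0.24), and in those with 60 or more it had -0.05 (-0.25 to 0.15). Over the alternatives 1 to 5 of the 24 genes were higher and 0 to 2 lower, and Cenpf, Cenpe and Cdc20 each came under 1.5-fold in some of them.

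Of the remaining lists, p53 targets and CDK inhibitors had a median of 0.29 with 2 of 8 measured higher, Cdkn1a (p21) and Cdkn1b (p27). Cdkn1b had 41.6 CPM in knock-in and 23.96 CPM in wild-type cells, and Cdkn1a had 55 UMIs in knock-in and 60 UMIs in wild-type cells, a log2 ratio of 1.16. Glycolysis had a median of -0.11 with 2 of 12 lower, Eno1 at 76.4 CPM in knock-in and 209 CPM in wild-type cells and Hk2 at 41.1 and 68.0 CPM. Ribosome biogenesis had a median of -0.00 with 0 of 18 higher and 1 lower, Polr1b. Nuclear oxidative phosphorylation genes had a median of -0.11 with 0 of 19 higher and 1 lower, Atp5e at 823 and 1241 CPM. Lists of other lineages had few measured genes: 6 erythroid, 4 megakaryocyte, 3 lymphoid, 2 basophil and mast cell, and 1 stromal. Their summed levels were 295 and 400, 133 and 126, 124 and 118, 143 and 184, and 46.9 and 57.6 CPM in knock-in and wild-type cells. The erythroid sum includes Apoe (log2 ratio -5.12), without which it was not lower in knock-in cells. One listed gene each was at least 1.5-fold apart in 4 of them, lower for Apoe, the integrin gene Itga2b and Mcpt8, and higher for Notch1. All of these calls but that of Apoe were lost in some alternatives, in which Itga2b ran from -2.03 to -0.09, Mcpt8 from -1.28 to -0.30 and Notch1 from 0.37 to 1.32. Of ribosomal protein genes 2 of 84 were higher and 10 lower (median 0.14), and of mitochondrially encoded genes 0 of 12 were higher and 3 lower (median -0.09). Mcpt8 of basophils had 33.2 CPM in knock-in and 57.4 CPM in wild-type cells, and 98 of 266 wild-type UMIs came from 3 cells.

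**Figure D4:**
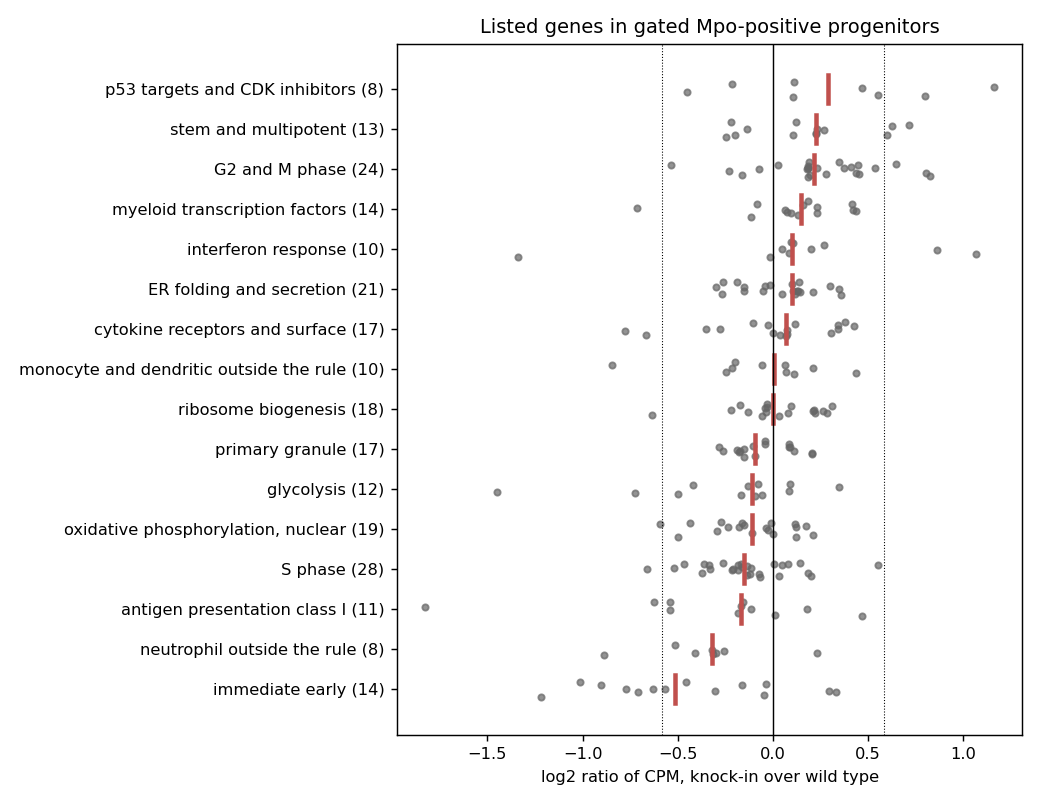
Log2 ratio of CPM, knock-in over wild type, for each measured gene (grey points) of 16 lists with at least 8 measured genes, in gated progenitors, where ribosomal protein and mitochondrially encoded genes are not drawn. Red bars are list medians, dotted lines mark 1.5-fold, and the number of genes stands in brackets. Immediate early genes have the lowest median, -0.51, and primary granule genes lie between -0.28 and 0.21.

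The genes named here from those ranked farthest apart between genotypes, all but Cenpf, stood on the same side in the other sets of the same libraries. Ncf4, a subunit of the phagocyte NADPH oxidase (chromosome 15, 78244801 to 78262580), had 143 CPM in knock-in and 57.0 CPM in wild-type gated cells (log2 ratio 1.33, 1.08 to 1.58). Its log2 ratio was 1.02 in monocyte-gene cells, 1.52 in Mpo-low Cd34-positive cells and 0.70 in Car1-positive cells. Cdk2ap1, an inhibitor of the kinase CDK2, had 124 and 57.8 CPM in gated knock-in and wild-type cells, a log2 ratio of 1.10, against 1.19, 1.20 and 1.004 in those other sets. Gmfg, a regulator of actin branches in blood cells, had 755 and 453 CPM (0.74), against 0.60, 0.86 and 1.25. The other higher genes ranked by the distance of their interval from 0 were Gm9493, Mndal, Pop4, Borcs8, Tsc22d3, Ifi203, Rida, Tuba1b and Cenpf, at log2 ratios of 0.69 to 1.09.

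Apoe, the apolipoprotein E gene (chromosome 7, 19696109 to 19699188), was the lowest of all, with 7 UMIs in gated knock-in cells and 593 UMIs in gated wild-type cells, 3.69 and 128 CPM (log2 ratio -5.12, -6.44 to -4.07). In those other sets its log2 ratios were -4.70, -3.65 and -6.18. At 3000 UMIs per cell, an Apoe UMI occurred in 1.94% of gated knock-in and 24.4% of gated wild-type cells (2.75% and 46.9% unthinned), and in 1.74% and 48.8% of Car1-positive Mpo-low knock-in and wild-type cells. The part of free RNA in the gated cells was not tested. Hist1h2ap, a histone H2A gene, had 53.7 CPM in gated knock-in and 638 CPM in gated wild-type cells. Other lower genes in that ranking were Gm10076, Usp50, Gstp1, Apobec3, Atp5k, Fcor, Hist2h2aa1 and Ndufa3, at log2 ratios of -3.25 to -1.61.

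Gdf3 and Cenpf were less far apart in the other sets. Gdf3, a growth factor of the TGF-beta family, had 5 UMIs in gated knock-in and 151 UMIs in gated wild-type cells (log2 ratio -3.63, -5.27 to -2.38), against -2.02 in monocyte-gene, -1.05 in Mpo-low Cd34-positive and -0.24 in Car1-positive cells. Cenpf stood at 0.83 in gated cells, against 0.34, -0.18 and -0.02. Differences between these ratios were not tested. Both were picked from the ranking after their values were seen.

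The shortest transcripts as a class were lower in the knock-in library. Genes whose longest annotated transcript is under 500 bases had a median log2 ratio of -0.64 in gated cells (30 genes, 16 of them at least 1.5-fold lower), and those of 4000 bases or more had 0.11 (2041 genes). The same shortest class had medians of -0.58, -0.77 and -0.29 in monocyte-gene, Mpo-low Cd34-positive and Car1-positive cells. Hist1h2ap (482 bases), Gm10076 (384 bases) and Fcor (392 bases) belong to this class. Atp5k (563 bases) belongs to the next class, from 500 to under 1000 bases. That class was nearly level in gated cells, with a median of -0.015 over 334 genes, 11 of them higher and 26 lower. The part of transcript length in their ratios and in that of the oxidative phosphorylation list was not tested.

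**Figure D5:**
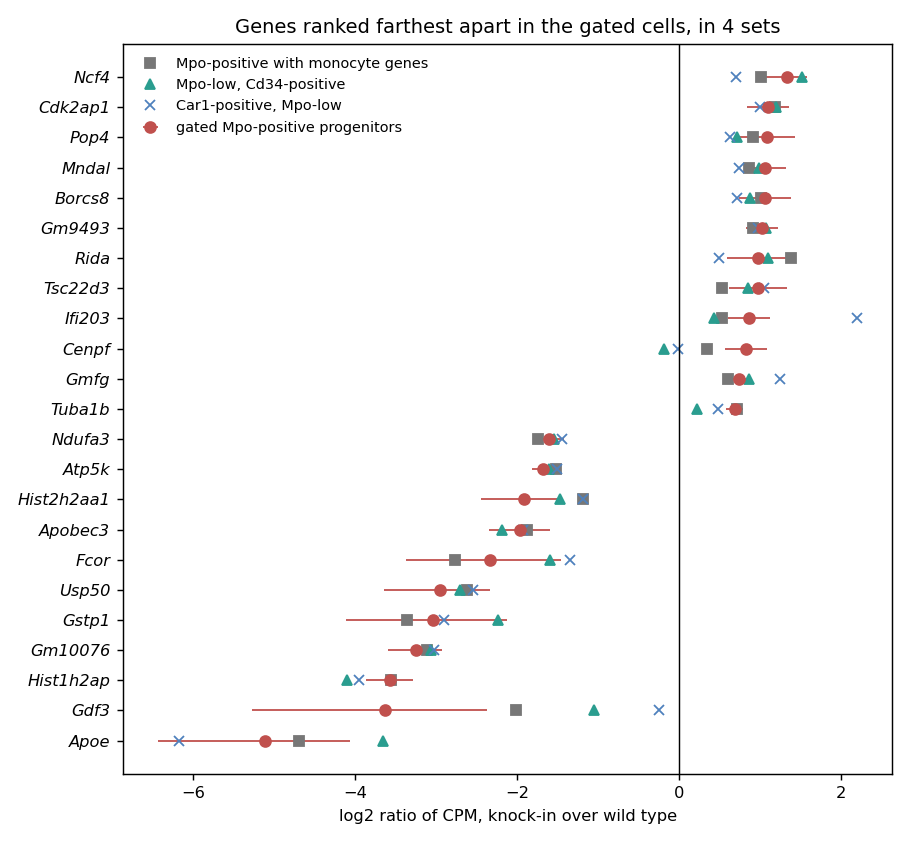
Log2 ratio of CPM, knock-in over wild type, of the ranked genes named in the text, in gated progenitors (red points with exact 95% intervals, counting error only) and in 3 other sets of cells of the same libraries. Apoe lies at -5.12 in gated cells and between -3.65 and -6.18 in the other sets, while Gdf3 lies at -3.63 in gated cells and -0.24 in Car1-positive cells.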

How the data were processed

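Droplet libraries were made with a 3′ kit (10x Genomics), per the labels' protocols. The authors deposited whole-number UMI counts per gene and barcode, written by Cell Ranger 3.1.0 per the file headers, with build mm10 per the submitters' processing notes. Annotation, read filters and barcode calling are not given in the sources used here. Depth was 48005467 UMIs over 6640 barcodes (knock-in) and 70543211 UMIs over 7471 barcodes (wild type).

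Cells were kept from 500 genes and 1000 UMIs upwards if no more than 10% of UMIs were mitochondrial. Counts were summed over the cells of a set and library and scaled to CPM. Ratios have exact conditional binomial 95% intervals and shares have Clopper-Pearson intervals. Both cover counting error only. With 1 library per genotype, no test was run. A gene was measured with at least 100 UMIs over both libraries, and was counted as apart at 1.5-fold. Against neighbouring sets the minimum was 100 UMIs over both sets in each library, and for tertiles 30 UMIs in the higher tertile of each library. A library at 0 stood at a floor of 3 UMIs. Named genes were the 12 in each direction with intervals farthest from 0, the markers, from each list up to 4 with the most UMIs and those 1.5-fold apart, up to 10 in each direction against each neighbouring set, and the 15 most variable. Genes ranked between tertiles, the length classes and genes outside that rule, among them Gfi1, Pdia4, Lcn2, Kit, Meis1, Xbp1, Il3ra, Csf2rb, Csf1r, Cebpa and Cdkn1a, were chosen after their values were seen. One ranked gene is not reported here. Members and lists were chosen with earlier results of these data known. Positions are from GENCODE M21, which held 31011 of 31053 gene identifiers. Python 3.11.15, scipy 1.17.1 and scanpy 1.11.5 (Scrublet scores) were used, and the ratio and its interval were tested on simulated data. Alternatives included other limits of the rule, equal depth, other scaling, other count minimums and leaving out high doublet scores.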

Additional observations from a re-analysis of the deposited data

Results flagged for a closer look

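The G2 and M phase list had a median above 0 in gated progenitors, near 0 in monocyte-gene cells and below 0 in the remaining sets. Its median log2 ratio, knock-in over wild type, was 0.21 in gated progenitors (3 of 24 measured genes at least 1.5-fold higher, 0 lower) and -0.52 in Mpo-low Cd34-positive cells (0 of 25 higher, 9 lower). It was -0.03 in Mpo-positive cells with monocyte genes, -0.44 in those with neutrophil genes (0 of 15 higher, 6 lower) and -0.18 in Car1-positive Mpo-low cells. Over all measured genes outside the rule, 178 of 5996 were higher and 195 lower in gated cells. In Mpo-low Cd34-positive cells 140 of 7054 were higher and 264 lower. In the neutrophil-gene set, with 44 knock-in cells, 274 of 2634 were higher and 198 lower. The summed list had 2457 CPM in gated knock-in and 2050 CPM in gated wild-type cells, and 1894 CPM in Mpo-low knock-in and 2685 CPM in Mpo-low wild-type cells. In monocyte-gene cells the sum was slightly higher in the knock-in library, at 2625 CPM against 2573 CPM in the wild-type library. It was lower in neutrophil-gene cells, at 1758 against 2077 CPM, and in Car1-positive Mpo-low cells, at 3025 against 3343 CPM. The difference between the sets was not tested, since each set of each genotype comes from 1 library.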

How the results depend on the processing

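The share of gated cells, log2 knock-in over wild type, was -0.98. It was -0.59 with Mpo of at least 10 CP10k, -0.48 with cells thinned to 3000 UMIs before the choice, and 0.39 as a share of Mpo-positive cells, and it stayed within its interval under 10 other settings, 1 of them added after the data were seen. Counts of genes higher and lower in knock-in cells, 178 and 195, were 91 and 119 with members thinned to 3000 UMIs, 569 and 549 at a minimum of 30 UMIs, and 49 and 90 at 300 UMIs. They stayed within 1.5 times under the other 14 settings each. Other minimums also change how many genes are counted, and the cause of these shifts was not tested. List medians moved by more than the half-width of their members' intervals in 1 of 307 recomputations, and named genes left their intervals in 154 of 2074, with no sign turned among the 52 at least 1.5-fold apart. Of these, 22 came under 1.5-fold in some setting. Farthest towards 0 were Itga2b at -0.09, Cdc45 at -0.24, Fcgr3 at -0.24, Klf6 at -0.26, Cdc20 at 0.26, Cdkn1b at 0.27, Mcpt8 at -0.30 and Zfp36 at -0.31. The others were Atp5e, B2m, Cd44, Cebpb, Cenpe, Cenpf, Dusp1, Hk2, Hoxa9, Jund, Notch1, Polr1b, Sox4 and Tuba1b, between 0.34 and 0.50 where higher and between -0.58 and -0.39 where lower. Settings for neighbouring sets and tertiles were added after the data were seen, and thinning and doublet scores were not run for neighbouring sets. Genes higher than in monocyte-gene cells (111) were 212 at Mpo 10. Those higher than in neutrophil-gene cells (98) were 226 at Mpo 10, 36 at Mpo 40, 57 with lineage limits of 2.5 CP10k and 321 with limits of 10, and those lower (49) were 21 at Mpo 40. Genes lower than in Mpo-low cells (726) were 391 with 2 UMIs of Cd34 and 402 with limits of 2.5, and those higher (232) were 154 with limits of 2.5. Between tertiles, genes higher (108) and lower (89) were 189 and 211 at Mpo 10, 46 and 31 at Mpo 40, and 48 and 21 with limits of 2.5. Genes lower were 137 with no Cd34 requirement, 47 with 2 UMIs of Cd34 and 181 with limits of 10. No paired analysis was possible because each genotype has 1 library.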
